A study of Mus musculus with 2 samples.

Results

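In mouse hippocampus, 1089 unspliced loci classed as antisense held long reads in both of the libraries sequenced. The strand is that of the deposited models, and how reads were given a strand was not given in the sources used here. Each is a locus that the authors' annotation classes as antisense, whose models all have a single exon, and which held 2 or more reads in replicate 1 and in replicate 2. Loci of the libraries were joined where they overlapped on the same strand. They came from 7607 unspliced antisense loci in replicate 1 and 4804 in replicate 2, of 8341 and 5374 antisense loci in all. Of these, 1159 loci of replicate 1 and 1137 of replicate 2 entered the shared set, and 1008 shared loci were a single locus in each library, whereas 81 joined more than 1.

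The study sequenced hippocampus of adult, 6-month-old mice of strain B6NCrl (C57BL/6). It holds 1 group of 2 libraries, with no second genotype, treatment or age. The labels number the libraries as biological replicates, describe the animals as male although the field for sex holds no value, and give both separate biosamples but 1 donor identifier. Tests between the libraries therefore compare those libraries, and a difference between them may be technical.

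Antisense RNA is transcribed from the strand opposite a gene. Some antisense transcripts are made from promoters of their own, and some continue from a neighbouring gene. An RNA made by RNA polymerase II usually carries a polyadenylation signal shortly before its 3′ end. In methods that copy RNA from an oligo(dT) primer, the primer can also pair with a stretch of adenines inside an RNA, a process called internal priming.

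The sequences below are shown because many 3′ ends of the loci lay at a genomic stretch of adenines. All were read 5′ to 3′ on the strand of the antisense locus from GENCODE M21 transcripts (build mm10). In the first set, the last 10 bases of the model are in lower case and the 20 genomic bases after its 3′ end are in capitals. Actb encodes cytoplasmic beta-actin, Sfxn5 a mitochondrial carrier, Gsk3b a serine/threonine kinase of the Wnt and insulin pathways, St13 a cochaperone of Hsp70 and Tubb5 a beta-tubulin. The last pair, from Tmem250-ps and Snap25, is shown as a contrast.
Actb (both libraries, chr5:142903645-142903674, plus strand): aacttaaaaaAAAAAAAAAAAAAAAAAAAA
Sfxn5 (both libraries, chr6:85213892-85213921, plus strand): gacaagtgggGACAAAAAAAAAAAAAAAAA
Gsk3b (replicate 2, chr16:38244380-38244409, minus strand): gaaatgggccAAAAAAAAAAAAAAAAAAAA
St13 (replicate 1, chr15:81364803-81364832, plus strand): gctgtaacacTTAAAAAAAAAAAAAAAAAA
Tubb5 (replicate 1, chr17:35834684-35834713, plus strand): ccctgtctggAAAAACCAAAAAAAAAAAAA
Tmem250-ps (both libraries, chr2:26138374-26138403, plus strand): ggtgggccctCACATGTCCACAAAGACCAT
Snap25 (both libraries, chr2:136781331-136781360, minus strand): aacaaaaaacACATGGTATCATTGGGAAGC

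Other models ended inside or just after such a stretch. The last 30 bases of 3 of them follow, with runs of 8 or more adenines in capitals.
AI593442 (replicate 1, chr9:52676797-52676826, plus strand): aggctcAAAAAAAAAAAAAAAAAAAAAAAA
Tmem170b (both libraries, chr13:41637373-41637402, minus strand): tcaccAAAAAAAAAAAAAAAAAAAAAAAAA
Fam81a (both libraries, chr9:70090249-70090278, plus strand): tgatttacAAAAAAAAAAAAAAAAAAAAAA

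The opposite end of many loci lay at the annotated 3′ end of the gene across from them, so that the antisense model began where the sense transcript ended. The first 30 bases of 4 such models are shown with TTTATT or TTTAAT in capitals. On the strand of the sense gene these read AATAAA or ATTAAA, sequences of the polyadenylation signal. Whether each marked stretch acts as a signal of the sense gene was not tested. Inpp4a encodes a phosphatase of inositol lipids, and Fam81a and AI593442 are less studied genes. The CT010467.1 start follows for a different reason given further on.
Inpp4a (both libraries, chr1:37410707-37410736, minus strand): TTTAATgttcttgtcagtTTTATTatttat
AI593442 (both libraries, chr9:52673042-52673071, plus strand): ttaacaagaaaactctTTTATTgatataaa
Fam81a (both libraries, chr9:70088511-70088540, plus strand): tttggaaatTTTATTctcTTTATTgcaaat
Tubb5 (both libraries, chr17:35833921-35833950, plus strand): tttttccaattcccaTTTATTtttggctct
CT010467.1 (both libraries, chr17:39846353-39846382, plus strand): tacctggttgatcctgccagtagcatatgc

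Replicate 1 held 1330153 reads and replicate 2 held 1366252, so 1 read stood for 0.752 and 0.732 CPM (counts scaled to a common library size). Marker genes of neurons, glutamatergic and GABAergic cells, dentate gyrus granule cells, CA1, CA3, astrocytes, oligodendrocytes and microglia had reads in both libraries. The 5 markers of choroid plexus, the tissue that secretes cerebrospinal fluid and adjoins the hippocampus, had a summed level of 13898 CPM in the first library but 311 CPM in the second, where 1 of them was at 0. In bulk tissue, fewer cells of a type and less RNA per cell cannot be told apart.

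The shared loci took 38916 reads in replicate 1, or 2.93% of the library (exact Clopper-Pearson 95% interval 2.90 to 2.95). They took 23693 reads in replicate 2, or 1.73% (1.71 to 1.76). These intervals cover counting error only, and over both libraries the share was 2.33% ± 0.843 (SD, n = 2). The loci held 54.8% and 57.5% of all antisense reads. Reads were uneven: the median locus had 9 reads in replicate 1 and 5 in replicate 2, 357 loci had 10 or more in each library, and 37 had 100 or more in each. The 12 loci with most reads held 29.4% and 29.0% of the set's reads. Read counts of the loci ranked alike in the libraries (Pearson r = 0.88 on log2 reads and Spearman rho = 0.82 across 1089 loci), a description in which all points share the same pair of libraries and the same minimum of reads. At that minimum, 86 loci had 2 reads in each library, among them those opposite Tmeff2, Irs1 and Rc3h1. A further 1216 matched loci fell under it, 532 of them with 1 read in each library, such as those opposite Tcea1 and Atp6v1h, and Gm37363 had 2 reads and 1 read.

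**Figure D1:**
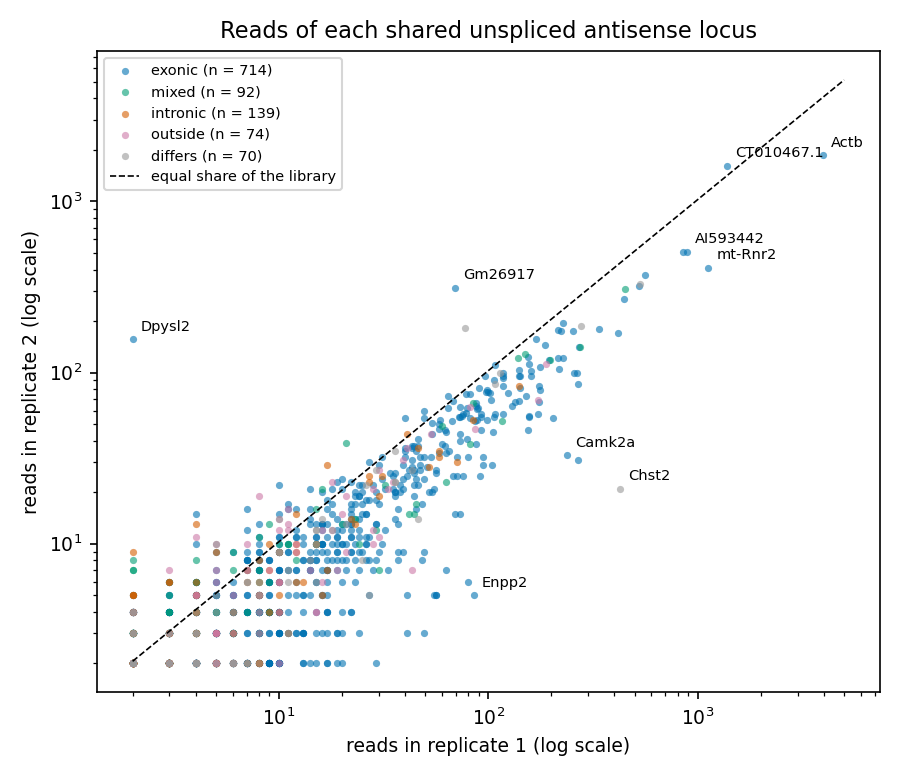
Reads of each shared locus in replicate 1 (x axis) and replicate 2 (y axis), both on log scales, with colours for position against the opposite gene and a dashed line where the share of the library is equal. Most points lie below the line, and Actb has 3950 and 1866 reads.

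Most shared loci lay across from the last exon of a protein-coding gene. An annotated gene was found opposite 1033 loci (983 distinct genes, 46 of them with more than 1 locus), and the other 56 lay opposite an unannotated locus. Of the 1033, 951 faced protein-coding genes, 21 lincRNA genes and 15 processed pseudogenes. A model was called exonic with 90% or more of its bases in annotated exons of the opposite gene, and mixed between 10% and 90%. At 10% or less it was called intronic, or outside where under 50% of it lay within the gene. In both libraries 714 loci were exonic (65.6%), 139 intronic, 92 mixed and 74 outside, while 70 changed class between the libraries. Exonic loci held 81.6% and 79.9% of the set's reads. When only exons of annotated transcripts with reads in that library were counted, exonic loci fell to 444 and intronic loci rose to 352.

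The exonic loci were mostly 3′ untranslated. Of 680 across from protein-coding genes, 641 had 50% or more of their bases in a 3′ UTR in both libraries, and 582 lay wholly in one. Coding sequence made up 50% or more of 17. An annotated last exon contained 684 of the 714, and 3 ran across an annotated splice junction of the opposite gene without being spliced.

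Loci outside the shared set were placed differently. In replicate 1, 67.0% of shared loci were exonic, against 48.1% of the 1610 unspliced antisense loci with 2 or more reads that had no partner and 29.7% of the 4838 loci with 1 read. In replicate 2 the values were 69.0%, 34.4% of 556 and 32.0% of 3111. Intronic positions ran the other way, with 13.2% of shared loci in each library against 31.1% and 33.5% of the unshared loci with 2 or more reads. These shares are descriptions, since the shared loci were chosen by their reads and the loci of a library are not replicates.

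**Figure D2:**
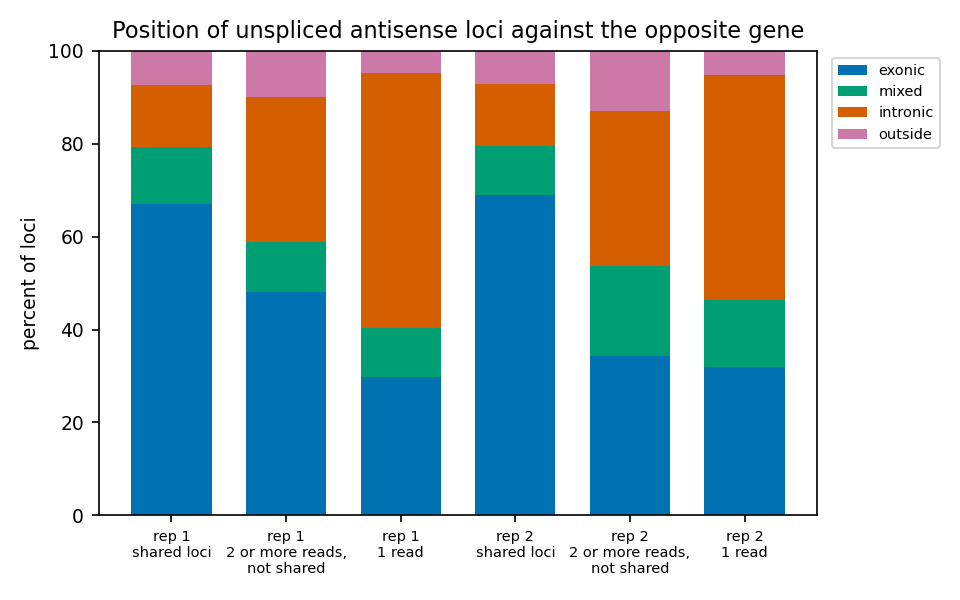
Percent of unspliced antisense loci in each class of position (y axis) for shared loci, loci with 2 or more reads that were not shared and loci with 1 read, in each library. The exonic share is highest in the shared loci, at 67.0% and 69.0%.

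The start of the antisense model coincided with an annotated 3′ end of the sense gene at 442 loci in both libraries. It was the annotated base itself at 515 loci in replicate 1 and 526 in replicate 2, and 1 to 100 bases away at 14 in each library. Within 100 bases, 457 loci qualified in both libraries (42.0% of the set), with 59.4% and 57.2% of its reads, and 444 of them were exonic. A start more than 100 bases beyond the nearest annotated 3′ end of the opposite gene was seen at 135 loci in both libraries. One more than 100 bases before that end was seen at 264. The nearest end can belong to any annotated transcript, so a start beyond it can still lie within the gene, as at Scg5. Limited to 3′ ends of transcripts with reads in that library, the 457 fell to 272. The deposited tables give the ends of models and not of reads, and whether ends were moved to annotated positions when models were built was not tested. A model of 1 base stood for 13 loci in replicate 1 and 15 in replicate 2 (201 and 199 reads), and at 6 loci in both. The one opposite Spock1, picked after its values were seen, had 89 and 62 reads at an annotated 3′ end.

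**Figure D3:**
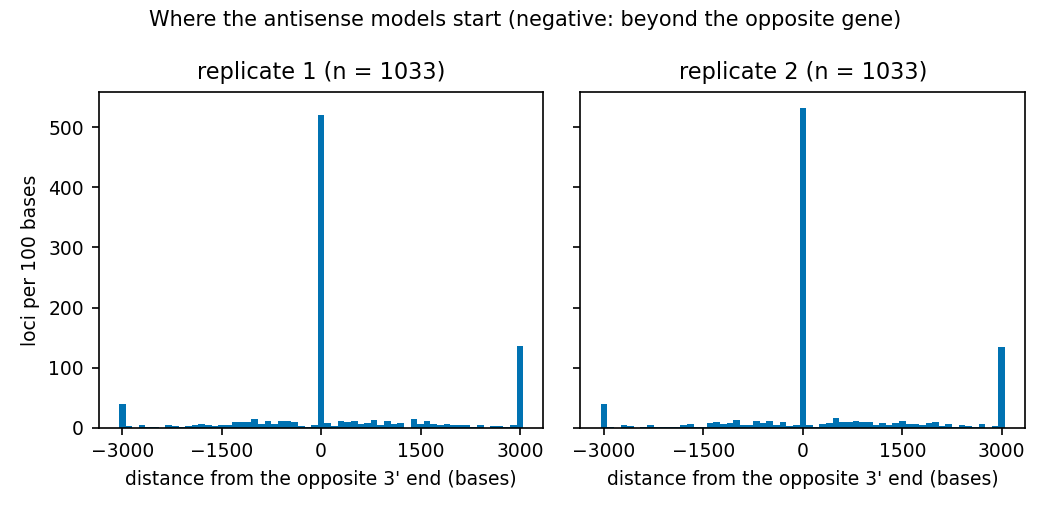
Number of loci per 100 bases (y axis) by the distance of the model's start from the nearest annotated 3′ end of the opposite gene, for the 1033 loci opposite an annotated gene. On the x axis (bases), negative values lie beyond that 3′ end, which can still be within the gene. The outermost bars collect all loci farther away, and the central bar includes the 515 and 526 loci at the annotated base.

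The other strand's polyadenylation hexamer was common at those starts, where the 3′ end of the sense gene places it by annotation. Among 440 exonic loci that started at the opposite 3′ end and had sequence, 345 (78.4%) held TTTATT or TTTAAT, the complement of AATAAA or ATTAAA, in their first 50 bases in both libraries. Among 167 exonic loci that started elsewhere in both libraries it was 22 (13.2%), and the contrast restates where the start lay. On the loci's own strand these hexamers were uncommon. Of 704 exonic loci, 65 in replicate 1 and 62 in replicate 2 held AATAAA or ATTAAA in their last 50 bases, and 48 (6.82%) in both. That percentage needs a hexamer in both libraries, whereas those of windows and transcripts that follow do not, so they are unlike measures. The same hexamers stood in 5.75% of the 50-base windows on the antisense strand of these genes' exons, overlapping hits counted once a window. These windows were not limited to 3′ UTRs, where most of the loci lay. The hexamers stood in the last 50 bases of 64.0% and 63.9% of annotated transcripts with reads.

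The 3′ ends lay beside genomic adenines more often than other windows of the same exons. Sequence was at hand only inside annotated exons, so this was measured on exonic loci (639 of 714 had the 20 bases after the end), and over all loci, where 67.4% had them, the check is void. At least 12 adenines in those 20 bases were found at 180 exonic loci (28.2%) in both libraries, against 2.27% of all 20-base windows on the same strand of the same genes' exons. A run of 8 or more adenines within 30 bases either side of the end, a measure added after the data had been seen, was found at 261 of 629 loci (41.5%) against 2.12% of 60-base windows. The windows of both measures were not limited to 3′ UTRs, where most of the loci lay, so they are not matched in position. Loci with such a run held 59.4% and 58.3% of these loci's reads. The share was 54.5% (133 of 244) among loci with 10 or more reads in each library and 72% (18 of 25) among those with 100 or more. No run was found in either library at 274 loci. In replicate 1, unshared exonic loci with 2 or more reads had such a run in 23.5% of 673 cases, against 47.4% of the shared ones. In replicate 2 the shares were close, 48.7% of 152 unshared loci against 50.6% of the shared ones. Sequence was at hand for 86.8% of the unshared exonic loci in replicate 1 and 79.6% in replicate 2, where the check was held void for its lower coverage. The contrast of shared with unshared loci was thus seen in replicate 1 alone and not in the values of replicate 2, so no conclusion is drawn from it. Whether priming at these adenines had a part in the reads was not tested.

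**Figure D4:**
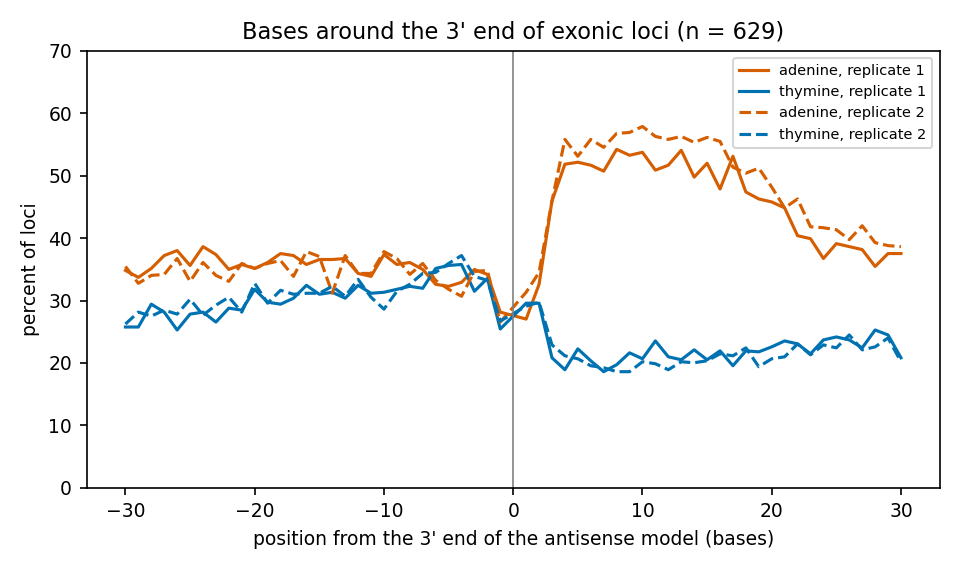
Percent of the 629 exonic loci with adenine or thymine (y axis) at each of 30 bases before and 30 after the model's 3′ end (x axis, bases), in both libraries. Adenine is at 34.8% and 35.5% 30 bases before the end and peaks after it at 54.2% and 57.9%.

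Per position, adenine was highest 8 bases after the end in replicate 1 (54.2%) and 10 bases after it in replicate 2 (57.9%). Over the first 20 bases it averaged 48.6% and 51.9%, and thymine 21.9% and 21.2%. The libraries placed the 3′ end at closely similar bases: 702 loci (64.5%) ended within 10 bases of each other, 498 at the same base. Where the end lay on no annotated exon edge, 604 of 952 (63.4%) did so. Exonic loci with a run of adenines in both libraries ended within 10 bases in 76.6% of cases, and those with a run in neither in 69.0%. Loci where the libraries differed in this were in neither group. Similar ends are thus partly built into the grouping, and no conclusion is drawn from the contrast. Starts were within 10 bases at 614 loci (56.4%), and among the 647 that did not start at the annotated 3′ end in both libraries, 196 were.

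The locus opposite Actb had the most reads, 3950 in replicate 1 and 1866 in replicate 2, at the same 540 bases of the 3′ UTR in both (chr5:142903115-142903654, plus strand). Its level was 2168 ± 1134 CPM (SD, n = 2), and Actb itself had 6782 and 3547 reads. Antisense reads made up 36.8% and 34.5% of both strands, so both strands had fewer reads in replicate 2 and the share was similar.

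Some of the other nuclear loci with many reads had more antisense than sense reads. AI593442 had 888 and 510 reads on a model of 3785 and 3788 bases wholly in its 3′ UTR, against 216 and 143 sense reads. Gsk3b had 853 and 504 reads, 54.1% and 52.6% of both strands, on models that ended 29 bases apart and started 617 bases apart. Tmem170b, a transmembrane protein gene, had 523 and 321 antisense but 36 and 18 sense reads. In these 3 genes antisense reads outnumbered sense reads in each library, as at Tmem250-ps (72.5% and 75.6% of both strands). At Sfxn5 (41.4% and 45.6%), St13 (45.5% and 41.2%) and Actb they did not.

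Fam81a had 446 and 270 reads on the same 1768 bases in both libraries (55.8% and 47.8% of both strands). Inpp4a had 416 and 170, and Sept2, a septin of the cytoskeleton, 339 and 179, each more than the sense reads. Those of Sept2 were the reads of a single annotation entry. St13 had 450 and 310 reads on a mixed model that crossed the end of the gene, with its start at -1684 and -1679 bases (negative values lie beyond the 3′ end). Sfxn5 had 531 and 328 reads with the same end base, but its model began 841 bases beyond the gene in replicate 1 and at the 3′ end in replicate 2. Tmem250-ps had 561 and 374 reads with the same start and end and no run of adenines over 3 bases at its end.

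Ribosomal RNA genes gave 2 of the loci with most reads. The locus opposite CT010467.1, annotated as an rRNA gene on the minus strand (chr17:39846353-39848827), had 1377 and 1622 reads, against 0 and 1 sense reads. Its start, printed above, is the conserved beginning of eukaryotic 18S ribosomal RNA, so these reads lie on the strand that carries the 18S sequence. The locus opposite mt-Rnr2, the 16S RNA of mitochondria, had 1122 and 410 reads against 28699 and 29896 sense reads. In all 11 loci lay on the mitochondrial genome, with 1996 and 1092 reads.

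Intronic loci held fewer reads on longer models than exonic loci, with medians of 3 reads in each library against 12 and 6. Scg5, a secretory granule chaperone, faced 140 and 83 reads on the longest models of the set, 6080 and 4881 bases with the same end. The locus in Nufip2 had 84 and 53 reads and that in Prkcb, a protein kinase C, 71 and 30. Ube2w, a ubiquitin-conjugating enzyme, faced 58 and 35, and Paqr3 58 and 32. Median model lengths were 1580 and 1505 bases for intronic loci and 1099.5 and 992.5 for exonic ones, and 1241 and 1144 over the set (1192.5 ± 68.6, SD, n = 2).

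Mixed loci had a median of 4.5 and 4 reads, and St13, described above, had the most. Among the others, Pam, an enzyme that amidates peptides, faced 196 and 118 reads, Gatad1 150 and 129, and Spry2, an inhibitor of receptor kinase signalling, 139 and 121. B930095G15Rik, a sense-intronic noncoding gene, faced 273 and 142 reads and had 18 and 12 of its own. The library ratios of Gatad1 (log2 ratio 0.26) and Spry2 (0.24) did not pass Fisher's exact test described below.

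Of the 5 outside loci with most reads, 3 lay opposite an unannotated locus. The one at chr16:28156227-28160098 had 189 and 113 reads, the one at chr2:180719362-180721595 172 and 69, and the one at chr12:102270391-102273295 86 and 47 (replicate 1 coordinates, all on the minus strand). The locus by Klhl34 had 82 and 63 reads. It began at the first annotated base of Klhl34 in both libraries and ran away from the gene, which itself had 0 and 1 reads. The locus by Dyrk1b, a protein kinase gene with 2 and 0 sense reads, had 53 and 44 reads. It started at -1366 and -1486 bases, beyond the gene, and ended at the gene's last annotated base. A same-strand gene ended within 5000 bases upstream of the start at 230 of the 1089 loci and within 1000 bases at 63. It did so within 5000 bases at 105 of the 457 that started at the opposite 3′ end and at 19 of the 135 that started beyond it.

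Genes opposite the shared loci had more of their own reads on single-exon models than other genes had. Their median was 52 and 46 sense reads, against 15 and 16 over all detected genes, and antisense reads were a median of 18.2% and 13.0% of both strands (15.6% ± 3.63, SD, n = 2). That median was 44.4% when sense reads that the annotation classes as genomic or incomplete were left out. Antisense outnumbered sense reads at 168 and 159 loci, 121 in both libraries, and no sense read was found at 23 and 36. Among multi-exon genes with 10 or more reads, single-exon models held a median of 44.4% and 37.0% of the sense reads of the opposite genes (813 and 792 genes), against 7.69% and 6.13% in other genes (8769 and 8793). For genes whose locus started at their 3′ end it was 52.9% and 42.2%. Across 298 loci with 10 or more reads on each strand in each library, antisense reads followed single-exon sense reads (Spearman rho = 0.69 and 0.55) more closely than all sense reads (0.50 and 0.33). These are descriptions over loci that share libraries and depth.

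Exonic loci with a run of adenines had the larger antisense share. Its median was 35.8% and 29.3% in the 261 loci with a run and 11.1% and 6.25% in the 274 without. Their median reads were 17 and 10 with a run, and 9 and 4 without. By the naming rule, the highest antisense shares among protein-coding genes were at Tmem170b, Slc5a3, Klhl34, Dyrk1b and Il4. Slc5a3, an inositol transporter, faced 226 and 121 reads and had 15 and 8 of its own, and Il4, an interleukin, faced 10 and 14 with 0 and 1.

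Replicate 1 had more of these reads, for its library size, than replicate 2. The summed CPM of the loci was 1.69 times that of replicate 2 (counting interval 1.66 to 1.71), and antisense reads outside the set stood at 1.88 times. By position the ratio was 1.72 for exonic, 1.5 for mixed, 1.42 for intronic and 1.57 for outside loci. It was 1.75 with a run of adenines and 1.62 without. In the opposite genes, single-exon sense reads had a ratio of 1.26 and spliced sense reads 0.918, while single-exon sense reads of all other genes had 1.12. The choroid plexus markers given above also differed between the libraries, and their part in the result was not tested.

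The reads of each feature with 10 or more over both libraries were set against all other reads of the library (Fisher's exact test, two-sided, p-values adjusted by Benjamini-Hochberg over 12931 features). Of 687 shared loci tested, 153 differed (22.3%), against 8.27% of all features, 6.44% of annotated genes, 26.1% of intergenic loci and 55% of other antisense loci. Higher in replicate 1 were 149 (21.7%), against 4.59% of all features, 2.78% of annotated genes, 14.4% of intergenic and 46.5% of other antisense loci. Higher in replicate 2 were 4 (0.582%), against 3.67% of all features and of annotated genes, 11.8% of intergenic and 8.5% of other antisense loci. The shared loci were thus called more often than annotated genes but less often than the remaining antisense loci, a difference between shares that was not tested. Only the shared loci needed 2 or more reads in each library, and the remaining antisense loci could lack reads in either. That rule by itself lowers the share called among the shared loci, so no conclusion is drawn from the contrast with the remaining ones. The median log2 ratio of the tested loci was 0.76, against -0.02 over all features with reads in both libraries, and 604 of 687 (87.9%) were above 0. The minimum of 2 reads in each library limits the ratio that a locus of few reads can show. With edgeR's exact test and the common dispersion of the group, a biological coefficient of variation of 21.3%, 25 of the 687 loci were called (3.64%), against 0.92% of all features. Of these, 23 were higher in replicate 1 (3.35%, against 0.673% of all features) and 2 in replicate 2 (0.291%, against 0.247%). That dispersion comes from the same 2 libraries.

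**Figure D5:**
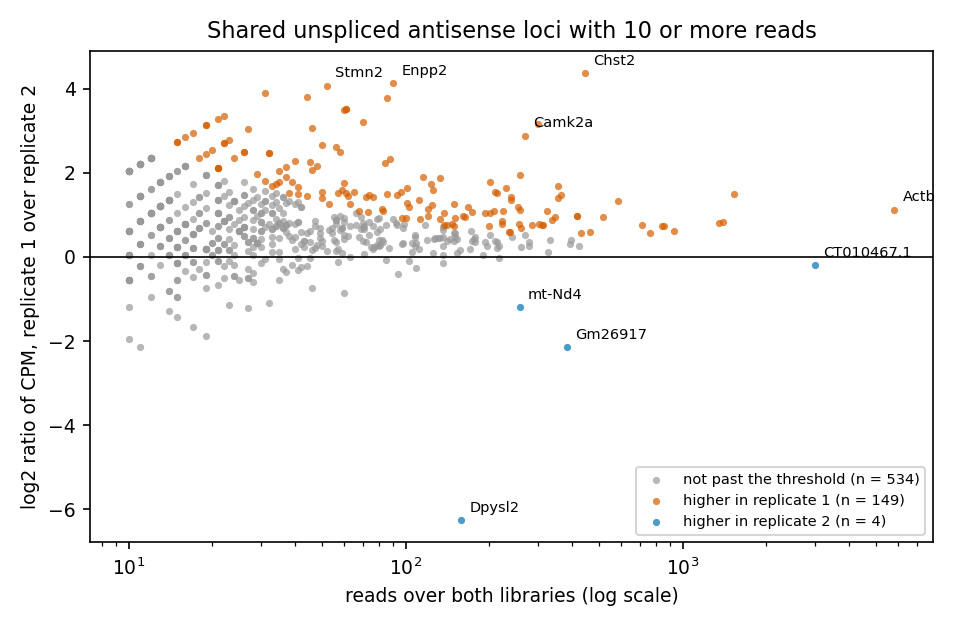
Log2 ratio of CPM between replicate 1 and replicate 2 (y axis) against reads over both libraries (x axis, log scale) for the 687 loci tested. The 149 loci called higher in replicate 1 lie above 0, and the 4 called higher in replicate 2 lie below it.

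Exonic loci made up 125 of the 149 higher in replicate 1, from 512 tested. From the other classes came 10 of 42 mixed, 2 of 46 intronic, 6 of 50 outside and 6 of 37 loci of changing class. Actb had a log2 ratio of 1.12 (Fisher's exact test, adjusted p = 2e-177) but adjusted p = 0.471 with edgeR's exact test. Inpp4a had 1.33, mt-Rnr2 1.49 and AI593442 0.84. Of the 12 loci with most reads, 11 were among those 149, and CT010467.1 (-0.20) was called in the other direction. None of these 12 was called by edgeR's exact test, where mt-Rnr2 had adjusted p = 0.085 and Inpp4a 0.247.

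Among called loci, the highest ratios were at Chst2, Enpp2, Stmn2, Nrep and Zc3hav1. Enpp2 encodes autotaxin, a choroid plexus marker: its locus had 85 reads in replicate 1 and 5 in replicate 2, and its own reads numbered 2136 and 305. Stmn2, a regulator of microtubules in neurons, faced 49 and 3 reads but had 510 and 618 of its own. Zc3hav1, an antiviral zinc-finger protein, faced 41 and 3, and Nrep, a gene of neuronal regeneration, 29 and 2. These 4 were also called by edgeR's exact test, with adjusted p from 2.6e-06 to 0.0091.

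Chst2, a sulfotransferase that acts on sugar chains, faced 423 and 21 reads in the shared locus. A spliced antisense locus, which the rule leaves out, added reads in replicate 2, and with all antisense reads across the gene the counts were 423 and 229 (log2 ratio 4.37 against 0.92).

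Among called loci, the lowest ratios were at Dpysl2, Gm26917, mt-Nd4 and CT010467.1, and the fifth by the rule, Micu3, a regulator of mitochondrial calcium uptake (253 and 176 reads), was higher in replicate 1. Gm26917 is a noncoding gene just beside CT010467.1, and its locus had 69 and 313 reads (log2 ratio -2.14, Fisher's exact test, adjusted p = 1.9e-34). Dpysl2, which encodes a protein of axon growth, faced 2 and 157 unspliced reads, but with spliced antisense loci counted it faced 701 and 157, and its log2 ratio turned from -6.26 to 2.20. mt-Nd4, a subunit of complex I, turned from -1.19 (77 and 181 reads of the joined locus, part of them outside the gene) to 1.08 (318 and 154 reads across the gene). With all antisense reads across the gene, 146 of the 148 called loci opposite an annotated gene kept their direction, and these 2 were the others. The leading models, from each library's locus with most reads, overlapped by 5 bases at Dpysl2 and 1 base at mt-Nd4 and Camk2a. These models thus lie on different stretches, and the overlap of the other joined loci was not measured. By edgeR's exact test Dpysl2 and Gm26917 kept their calls, while mt-Nd4 (adjusted p = 0.654) and CT010467.1 lost theirs.

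The ratio of a locus was loosely tied to that of its gene. Across the 298 loci with 10 or more reads on each strand in each library, the median log2 ratio was 0.68 for the loci and 0.32 for the opposite genes, above 0 in 272 and 231. Pearson's r between the 2 ratios was 0.28 and Spearman's rho 0.25, a description in which both ratios share the libraries. The neuronal Snap25, a protein of synaptic vesicle release, had 160 and 96 antisense reads at the same 1078 bases while its own reads were 2895 and 3838.

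Known gene groups held loci in uneven numbers. Of the 18595 detected genes 5.21% had a shared locus, and of 11255 protein-coding genes with 10 or more reads 7.62%. The gene lists were not matched to these genes in read level, and genes opposite the loci had more reads than detected genes at large. Among 25 synaptic genes 9 had one, or 36%: Camk2a, Camk2b, Camk2n1, Gria1, Gria2, Nrgn, Snap25, Syn2 and Syt1. Their 12 loci had 591 and 189 reads, and 5 of 7 tested (Camk2a, Camk2n1, Gria1, Nrgn and Snap25) passed Fisher's exact test with the higher level in replicate 1, against 21.7% of the shared loci and 4.59% of all features. By edgeR's exact test Camk2a and Nrgn kept the call, while Camk2n1 (adjusted p = 0.0945), Snap25 and Gria1 lost it. Camk2a, the kinase of synaptic plasticity, faced 237 and 33 reads with 705 and 666 of its own, and Camk2n1, an inhibitor of that kinase, faced 94 and 29.

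Among 20 cytoskeletal genes 6 had a locus (Actb, Dpysl2, Map1b, Nefm, Stmn2 and Tubb5), and Tubb5 faced 177 and 108 reads. Among the genes of myelin and oligodendrocytes, Mal, a myelin membrane protein, faced 55 and 5 reads, and Cnp, a myelin enzyme, faced 6 and 3. Of 15 astrocyte genes 3 had a locus (Gja1, Slc1a2 and Slc1a3). Slc1a2, the main glutamate transporter of astrocytes, had 2 shared loci, with 168 and 158 reads and with 140 and 68. All its antisense reads numbered 1072 and 971, so most of them lay on loci outside the set. Gja1, connexin 43, faced 62 and 46.

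The remaining lists had 1 locus or none. Enpp2 was the single one among 10 choroid plexus genes (10%), Rgs5, a marker of pericytes (2 and 3 reads), among 8 vascular genes (12.5%), and Dnaja1, a cochaperone (4 and 2), among 9 chaperone genes (11.1%). None was found for the 10 microglial and 14 glycolytic genes. Whether any of these lists differs from the share over all detected genes was not tested.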

How the data were processed

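Long-read RNA of 2 hippocampus libraries was used as the authors deposited it: raw counts of reads per transcript model, without normalization, and model coordinates on mm10 with GENCODE M21, per the text deposited with the files. Models carry TALON identifiers. The aligner, filters and the way reads were given a strand were not given in the sources used here. Members, lists and most tests were chosen with earlier results of these data known.

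Loci were joined across libraries by an overlap of 1 base on the same strand. The class "outside" and the run of adenines were added after the data had been seen. Fisher's exact test (scipy 1.17.1) covered features with 10 or more reads over both libraries at an adjusted p of 0.05. It was tried on data simulated with counting error alone, which cannot show how it behaves under a wider spread between libraries. edgeR 4.0.16 and DESeq2 1.42.0 gave other library sizes and the exact test. No genome was used here, so the checks of adenines and hexamers, planned for a genome, were run on annotated exons, with windows of the same exons as background. Named were loci with most reads over all and per class, with the 5 highest and 5 lowest ratios among those called, with the 5 highest antisense shares, up to 3 per gene list, and 3 at and below the minimum. One locus that the naming rule gives is not reported here.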

Additional observations from a re-analysis of the deposited data

How the results depend on the processing

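The 2 libraries form 1 group, so there is no difference between conditions. Fisher's exact test sets the difference between the libraries against counting error alone and holds no estimate of the spread between replicates. Depth limits the loci of few reads. No paired analysis was possible because the replicate numbers pair no samples of 2 groups. The number of shared loci was 2305, 545 and 347 with a minimum of 1, 5 and 10 reads. It was 891 when the overlap had to reach 50% of the longer locus. The ratio of summed CPM was 1.73 on reads of annotated genes, 1.66 for loci with 10 or more reads in each library and 1.65 without Actb (added after seeing the data). Exact tests by edgeR called 25 loci (3.64%, against 0.92% of all features). With exons and 3′ ends of transcripts with reads alone, 444 loci were exonic, 61 mixed and 352 intronic, and 272 started at the opposite 3′ end. Without genomic and incomplete sense reads, the antisense share was 44.4%. Hexamers in the last 30 bases were at 26 loci. The cause of these shifts was not tested, apart from the fewer transcripts, reads and bases that some settings hold by construction. Leaving out a library gave 1.73% to 2.93% of reads, 730 to 751 exonic, 115 to 134 mixed and 144 intronic loci, 529 to 540 starts, an antisense share of 13.0% to 18.2%, a length of 1144 to 1241 bases, 223 to 256 A-rich ends and 62 to 65 hexamers. Of the named loci, Dpysl2 (log2 ratio 2.20) and mt-Nd4 (1.08) reversed with all antisense reads across the gene, an alternative added after seeing the data.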
